A study of Mus musculus with 40 samples.

Results

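The step from day 5 to day 6 was followed in untreated aggregates of mouse embryonic stem cells, as 4 libraries of day 5 against 4 of day 6, 8 of the 40 libraries of the series. The cells were of the CGR8 line (strain 129), gathered in serum-free N2B27 with Activin-A, Fgf2 and KSR, which all groups shared. The labels mark the untreated libraries as grown with no matrigel and with no treatment. The other arm received XAV939, a tankyrase inhibitor that lowers Wnt signalling, during the opening 72 h, and each arm has 4 libraries at each of days 3, 4, 5, 6 and 7. No label states that the 4 replicates of a group came from separate cultures, so the p-values cover the spread among libraries alone, which may be technical. All cells came from a single line.

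As background, epiblast cells hold the pluripotency factors Oct4 and Nanog until they pass through a primitive streak, where Wnt and Nodal signalling and the T-box factor Brachyury lead them to mesoderm and endoderm. At the tail end of the embryo a caudal epiblast then feeds the presomitic mesoderm, which segments into somites, and the spinal neural tube, while Hox genes are switched on in the order of their clusters. Aggregates of embryonic stem cells go through parts of this sequence in culture.

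The 8 libraries held 30734339 to 41018704 counts. Levels are in CPM, with library totals scaled by TMM, and changes as log2 fold changes of day 6 over day 5 with their standard error (SE). Of 16878 genes tested, 1874 were higher and 1471 lower at day 6 at a Benjamini-Hochberg adjusted p below 0.05 (edgeR quasi-likelihood test). This is 11.1% and 8.72% of the genes, or 19.8% in all, and the median over all genes was 0.02. Each count of list members below is set against these shares, and a count near them is no result about the list. At least a 2-fold change was seen for 1116 of the higher and 951 of the lower genes. In 16.7% of genes the 4 libraries of one day did not overlap those of the other. In bulk samples, fewer cells of a type and less RNA per cell cannot be told apart.

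Day 6 library 3 stood apart from its group. Its log2 levels correlated with the other day 6 libraries at 0.955 to 0.965, against 0.983 to 0.989 among those 3, a description across genes. Ribosomal protein genes took 11.84% of its counts and 5.19% to 5.42% of the others', transcripts of at least 8 kb took 3.99% against 9.17% to 9.96%, and mitochondrial genes took 0.915% against 1.73% to 2.84%. Genes with short transcripts were high in it and genes with long transcripts low, as described further on. Day 5 library 1 and day 6 library 1 also stood apart for some lineage genes, and their values are given with those genes.

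**Figure D1:**
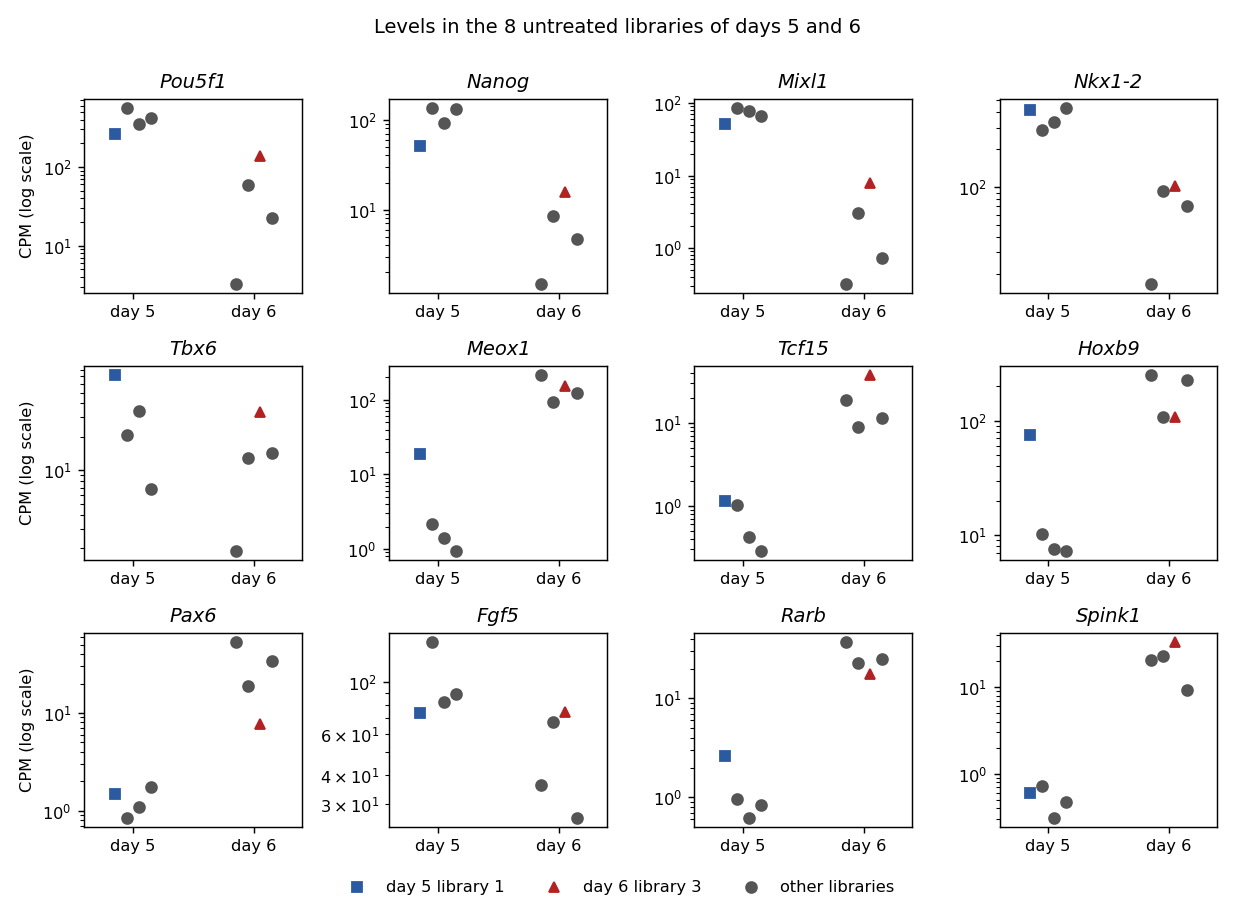
CPM on a log scale of 12 genes in the 4 day 5 and 4 day 6 libraries, 1 point per library, with day 5 library 1 as squares and day 6 library 3 as triangles. Nanog, Mixl1 and Nkx1-2 were lower in every day 6 library than in any of day 5, Meox1, Tcf15, Pax6, Rarb and Spink1 were higher, and Tbx6 and Fgf5 overlapped.

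Pluripotency genes were lower at day 6. Of 18 tested genes of the epiblast list, 13 were lower and 0 higher, with a median of -0.98, and of 13 naive pluripotency genes 9 were lower and 0 higher, with a median of -1.96, where 8.72% of all genes were lower. Without day 6 library 3, where 9.48% of all genes were lower and 11.6% higher (21.1% in all), the counts were 12 lower with 1 higher, and 8 lower with 0 higher. Nanog, a homeobox factor that holds the pluripotent state, lies at chr6:122707489-122714633 (GRCm38). Nanog stood at 51.2, 135, 91.7 and 133 CPM at day 5 and at 1.49, 8.45, 15.5 and 4.72 CPM at day 6. All 4 libraries of day 6 were below all of day 5, with library 3 the highest of its day. Its log2 fold change was -3.77 ± 0.44 (SE, adjusted p = 1.26e-07, n = 4 and 4, edgeR). Pou5f1, which encodes Oct4, read 262, 560, 351 and 424 CPM at day 5 against 3.28, 58.6, 138 and 22.3 CPM at day 6. It fell by 2.85 ± 0.62 on the log2 scale (adjusted p = 0.000983), and by 3.84 without library 3.

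L1td1, an RNA-binding protein of pluripotent cells, read 77.9, 301, 158 and 301 CPM at day 5 and 3.2, 36.5, 25.9 and 12.5 CPM at day 6. It fell by 3.42 ± 0.50 on the log2 scale (adjusted p = 5.57e-06). Tdgf1, the Nodal co-receptor Cripto, went from 241 ± 115 to 28.9 ± 30 CPM (SD, n = 4 and 4), a log2 fold change of -3.06, and -3.98 without library 3. Day 6 library 3 held the highest level of the day for Nanog, Pou5f1 and Tdgf1, but not for L1td1. Prdm14, a germ-line and pluripotency factor, went from 2.94 ± 0.366 to 0.292 ± 0.187 CPM, and Klf5, a naive-state Krüppel factor, from 16.8 ± 1.62 to 5.25 ± 1.6 CPM. Tdh, a threonine dehydrogenase of naive cells, changed by -3.01, and by -2.39 without day 5 library 2. Dnmt3b, the de novo DNA methyltransferase of the epiblast, was lower in every library and went from 486 ± 93.2 to 242 ± 74.6 CPM (log2 fold change -1.01, adjusted p = 0.00307). Of 8 DNA methylation genes 4 were lower and 0 higher. Fgf5, an epiblast growth factor, was 73.5, 148, 82.1 and 88.9 CPM at day 5 and 36.2, 67.6, 74.4 and 26.2 CPM at day 6, so the groups overlapped. Its change of -0.94 had an adjusted p of 0.0404, which was 0.202 without day 5 library 2, 0.0554 without day 5 library 4, 0.124 without day 6 library 1 and 0.141 without day 6 library 4.

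Promoter windows of 250 bases before the RefSeq start (GRCm38.p6) were searched on both strands with 5 motif patterns. Shares of windows are counted per window, but a list member counts if any of its windows matches, so these are unlike measures. A joined pattern for SOX and POU factors (ATTGT, 1 free base and ATGCAAA) was in 8 of 32851 windows (0.0244%) and, of 13 epiblast list members with a window, in Nanog. With 2 free bases (the other in place of the opening A of the POU letters) it was in 10 windows (0.0304%) and again in Nanog alone of the list. A TCF/LEF pattern (CTTTGAA or CTTTGAT) was in 7.48% of windows and in Dkk1, Sp5, Sp8 and T of 10 Wnt target members. A GLI pattern (GACCACCCA) was in 0.225% of windows and in 0 of 10 Hedgehog members. The retinoic acid receptor pattern DR5, a direct repeat with 5 bases between its copies, was in 29 windows (0.0883%) and in Cyp26a1 and Rarb of 12 retinoic acid members. The genes Nanog and Rarb, which moved in opposite directions across the step, were chosen for display after their matches were seen, and a match is a description of letters only. In the sequences, 5′ to 3′ along the gene, capitals mark the match. In Nanog (chr6:122707239-122707488, plus strand) it lies 75 to 63 bases before the start on the minus strand, and in Rarb (chr14:16575477-16575726, minus strand) 53 to 37 bases before the start on the gene's strand.
Nanog: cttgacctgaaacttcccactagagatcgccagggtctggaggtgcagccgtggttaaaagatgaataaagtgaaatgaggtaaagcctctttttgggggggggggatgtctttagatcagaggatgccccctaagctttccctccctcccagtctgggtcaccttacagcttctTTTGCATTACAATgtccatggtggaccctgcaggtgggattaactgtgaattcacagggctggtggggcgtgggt
Rarb: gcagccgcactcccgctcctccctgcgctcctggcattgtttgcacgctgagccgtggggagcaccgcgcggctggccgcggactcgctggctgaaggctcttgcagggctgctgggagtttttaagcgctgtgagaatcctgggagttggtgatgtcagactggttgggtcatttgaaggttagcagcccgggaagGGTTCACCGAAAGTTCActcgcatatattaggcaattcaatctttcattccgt

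Genes of the primitive streak were mostly lower or without a call. Of 16 tested, 7 were lower and 1 higher, with a median of -1.12, and 8 lower and 1 higher without library 3, with a median of -1.75. Mixl1, a homeobox factor of the streak, stood at 50.9, 85.6, 78.1 and 66.9 CPM at day 5 and at 0.32, 3.08, 7.88 and 0.733 CPM at day 6. Every day 6 library was lower than every day 5 library, by a log2 fold change of -4.56 ± 0.91 (adjusted p = 0.000336), and -5.68 without library 3. Wnt3, a ligand that starts the streak, was 13.2, 22.2, 19.2 and 17.9 CPM at day 5 and 3.36, 2.48, 4.43 and 2.34 CPM at day 6 (-2.53 ± 0.58, adjusted p = 0.00159). Lefty2, a Nodal antagonist and target, changed by -2.30 with library 3 and by -3.19 without it. Of 11 Nodal and Activin pathway genes 5 were lower and 0 higher. The panel of time courses shows the days before and after: Mixl1 was at 0.463 ± 0.144 CPM at day 3, 44.1 ± 82.2 CPM at day 4 and 0.0978 ± 0.0246 CPM at day 7.

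T (Brachyury), the factor of streak, tailbud and notochord, read 283, 490, 435 and 372 CPM at day 5 and 16.4, 102, 130 and 83.7 CPM at day 6. The groups did not overlap and the change was -2.25 ± 0.73 (adjusted p = 0.0246). That call ended without day 5 library 2 (adjusted p = 0.0554), day 6 library 1 (0.0824) or day 6 library 4 (0.0511). Nkx1-2, a homeobox factor of the caudal epiblast, went from 415, 285, 331 and 430 CPM to 16.8, 93.6, 103 and 69.9 CPM (-2.37 ± 0.57, adjusted p = 0.00244). Evx1, a homeobox factor of the posterior streak, was 32.5, 20.2, 27.9 and 13.4 CPM and then 1.57, 2.31, 10.3 and 1.96 CPM, with library 3 far above its group. Its change of -2.55 (adjusted p = 0.0267) was -3.59 (0.00522) without library 3, and the call ended without day 5 library 1 or 3 and without day 6 library 1, 2 or 4 (adjusted p = 0.0505 to 0.083). Wnt3a, a tailbud Wnt ligand, was at 40.2, 15.8, 27.4 and 10.3 CPM and then 1.36, 3.31, 14.6 and 2.99 CPM. It passed only without library 3 (-3.20, adjusted p = 0.0263, against -2.08 and 0.115 with it). Cdx2, a caudal homeobox factor, did not pass (-0.24, adjusted p = 0.844). It read 119, 37.7, 42.5 and 47.3 CPM and then 12.6, 45.7, 105 and 46.1 CPM, and its sign turned without day 5 library 1 (0.30) or day 6 library 1 (0.09). Of the 16 caudal epiblast and tailbud genes 5 were lower and 3 higher, and 8 lower and 2 higher without library 3.

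Of 15 FGF signalling genes 8 were lower and 1 higher. Etv5, a transcription factor downstream of FGF, was 205 ± 12.1 CPM at day 5 and 93 ± 9.16 CPM at day 6 (-1.14, adjusted p = 0.00276), and Il17rd, a feedback inhibitor, went from 461 ± 68.1 to 191 ± 64.2 CPM.

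Presomitic genes did not move one way. Of 15 tested, 5 were higher and 1 lower, and 3 higher and 1 lower without library 3. The median turned from 0.45 to -0.088. Msgn1, a helix-loop-helix factor of the unsegmented mesoderm, was at 41.5, 12.1, 14.1 and 3.05 CPM and then 0.0267, 1.91, 6.53 and 1.47 CPM. Its change of -2.84 (adjusted p = 0.0457) was -3.97 (0.0137) without library 3, but -1.98 (0.184) without day 5 library 1, and the call also ended without any one of day 5 libraries 2 and 3 and day 6 libraries 1, 2 and 4 (adjusted p = 0.059 to 0.101). Tbx6, a T-box factor of the same cells, overlapped between days, at 72.1, 20.8, 34.2 and 6.84 CPM against 1.89, 13, 33.2 and 14.2 CPM (-1.11, adjusted p = 0.295). Mesp2 and the Ripply genes, which act at the border of the next segment, rose. Mesp2 went from 1.88, 0.847, 0.876 and 0.579 CPM to 2.96, 3.74, 13.3 and 4.51 CPM (2.55, adjusted p = 0.000366), and by 1.84 without library 3, which was the highest. Ripply1, which ends Tbx6 activity there, rose by 3.0 ± 0.33 (adjusted p = 3.56e-08), and by 2.59 without library 3. Ripply2, of the same family, rose by 4.67, and by 3.80 without library 3.

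Most somite genes rose. Of 18 tested, 14 were higher and 0 lower with a median of 2.59, where 11.1% of all genes were higher, and the counts were the same without library 3. Meox1, a homeobox factor of somites at chr11:101877510-101894374, was at 18.8, 2.19, 1.41 and 0.947 CPM at day 5 and at 216, 93.3, 152 and 125 CPM at day 6. Day 5 library 1 was about an order of magnitude above the rest of its group. The change was 4.66 ± 0.55 (adjusted p = 1.55e-07), and 6.58 without that library. Tcf15, a somite helix-loop-helix factor, read 1.14, 1.04, 0.424 and 0.289 CPM and then 18.8, 9, 37.5 and 11.4 CPM (4.72 ± 0.40, adjusted p = 6.66e-10). Tbx18, of the anterior somite, went from 0.134 ± 0.0388 to 7.86 ± 3.9 CPM, and Uncx, of the posterior somite, from 0.0465 ± 0.0118 to 2.25 ± 1.38 CPM. Dmrt2, a factor of the dermomyotome, went from 0.745 ± 0.252 to 20.3 ± 9.52 CPM and Sim1 from 0.509 ± 0.31 to 14.4 ± 9.1 CPM.

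Most tested Hox genes of paralog groups 1 to 9 rose. In groups 1 to 4, 8 of 12 were higher, in groups 5 to 8 all 11 were, and in groups 9 to 13, 3 of 5. Without library 3 these counts were 7, 10 and 3, and none was lower in either. Only 5 of the 16 genes of groups 9 to 13 passed the count filter. The 3 that rose were all of group 9, and the other 2, of group 13, had no call (-2.12 and -0.57). Day 5 library 1 already held more Hox RNA than its group. Hoxb4 read 6.63, 1.13, 0.933 and 0.842 CPM and then 10.7, 11.1, 15 and 19.5 CPM (2.57, adjusted p = 0.00038, and 3.86 without day 5 library 1). Hoxb9 read 75, 10.2, 7.49 and 7.29 CPM and then 251, 107, 107 and 226 CPM (2.80 ± 0.55, adjusted p = 0.000269, and 4.38 without day 5 library 1). Hoxd4, Hoxa7 and Hoxc6 rose by 3.22, 3.89 and 3.62, and by 4.13, 5.50 and 5.80 without that library. Neighbouring Hox genes have overlapping transcripts and the strand setting of the counting is not given in the sources used here, so their counts may share reads.

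**Figure D2:**
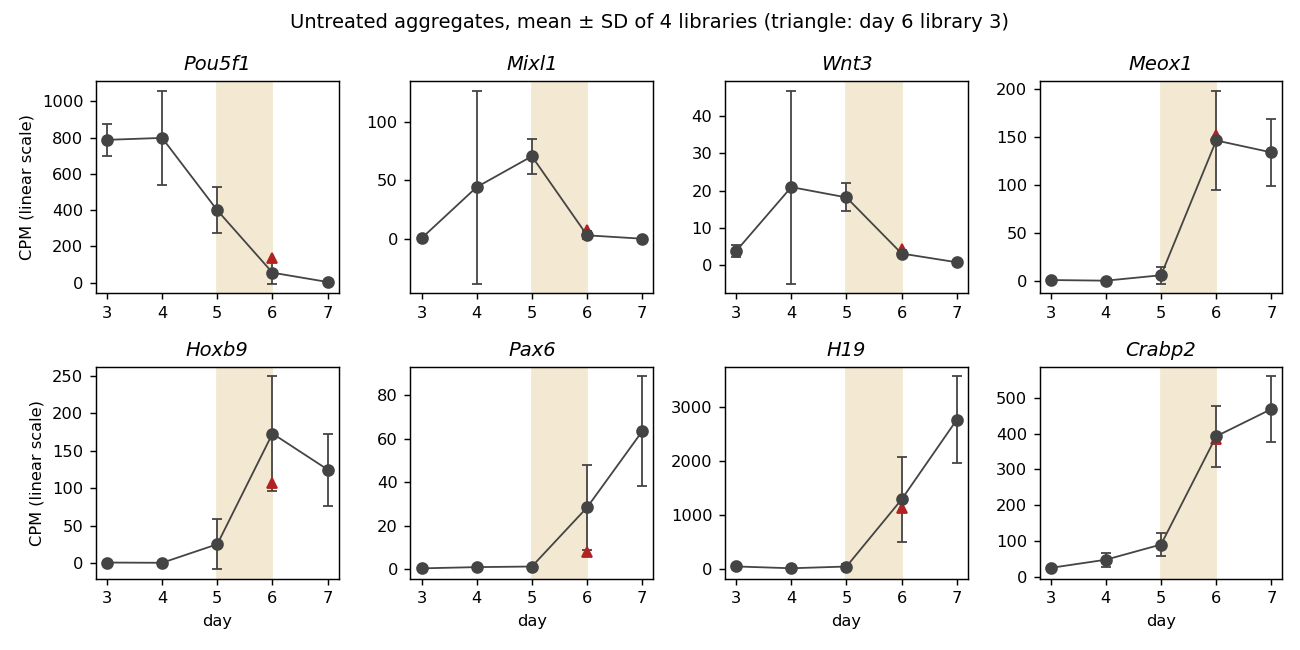
CPM on a linear scale of 8 genes at days 3 to 7 in untreated aggregates, as the mean ± SD of 4 libraries, with day 6 library 3 as a triangle and the day 5 to day 6 step shaded. Mixl1 and Wnt3 fell in this step from their day 4 and 5 levels, Meox1 and Hoxb9 rose in it, and the mean levels of Pax6, H19 and Crabp2 were higher again at day 7, which is not tested here.

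Lateral mesoderm genes rose in part. Of 16, 9 were higher and 1 lower, with a median of 1.70 (8 and 1 without library 3). Prrx1, a factor of lateral and limb mesenchyme, went from 1.73 ± 0.193 to 12.1 ± 6.41 CPM, Foxf1, of splanchnic mesoderm, from 0.468 ± 0.3 to 2.7 ± 1.26 CPM, and Twist1 from 3.86 ± 1.3 to 13.6 ± 6.1 CPM, with no overlap for any of the 3.

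Genes of endothelium and blood rose in part, and day 6 library 1 stood far above its group for Kdr, Tal1 and Cdh5. Of 16, 9 were higher and 0 lower, and 8 and 1 without library 3. Kdr, the VEGF receptor, was at 30.9, 11.3, 24.4 and 8.16 CPM and then 55.6, 7.37, 7.3 and 5.16 CPM (0.02, adjusted p = 0.989). Without day 6 library 1 its change was -1.5 (adjusted p = 0.0403), and its sign also turned without day 5 library 2 (-0.16) or 4 (-0.24). Tal1, a blood and endothelial factor, was at 0.269, 0.282, 0.254 and 0.368 CPM and then 8.21, 1.23, 0.679 and 1.49 CPM (3.29, and 1.94 without day 6 library 1). Cdh5, the endothelial cadherin, changed by 3.48 (adjusted p = 0.000986), and by 1.61 (0.0793) without that library. Runx1, a blood factor, rose by 2.26 ± 0.27 (adjusted p = 1.91e-07) and stood at 4.66, 4.97, 2.07 and 2.75 CPM at day 6. Of 14 cardiac genes 6 were higher and 1 lower, and 3 and 1 without library 3. Myh7, a myosin heavy chain, went from 0.601 ± 0.246 to 4.93 ± 1.11 CPM, and Actc1, cardiac actin, fell from 12.4 ± 7.63 to 3.7 ± 0.962 CPM. Actc1 is close in sequence to the other actins, so its counts could be split with them.

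Genes of endoderm and gut were higher in 11 of 20 and lower in 0, with or without library 3. Spink1, a trypsin inhibitor of gut epithelium, was at 0.597, 0.73, 0.311 and 0.474 CPM and then 20.4, 23, 33.3 and 9.38 CPM (5.33 ± 0.55, adjusted p = 1.71e-08). Krt18, a keratin of simple epithelia, read 76.7, 95.4, 65.3 and 46.2 CPM and then 189, 290, 515 and 150 CPM, with library 3 the highest (2.01, and 1.56 without it). The general endoderm factors did not pass: Foxa2 was 29.3 ± 11.4 and 32.7 ± 15 CPM (0.16, adjusted p = 0.872), with its sign turned to -0.16 without library 3 and to -0.01 without day 5 library 4, and Sox17 was 10.5 ± 6.09 and 22.9 ± 7.59 CPM (1.12, adjusted p = 0.167). Of 16 epithelial junction and keratin genes 7 were higher and 1 lower. Cdh1, the epithelial cadherin, was 319 ± 67.2 and 210 ± 78.1 CPM (-0.60, adjusted p = 0.103), and passed without day 6 library 2 (-0.83, adjusted p = 0.0324). Cdh2, the neural and mesodermal cadherin, was 228 ± 54.6 and 272 ± 78.1 CPM (adjusted p = 0.531). In a list of extraembryonic markers, other cells that an aggregate could hold, 5 of 15 were higher and 1 lower, where 11.1% and 8.72% of all genes were. The summed level of that list was 381 to 608 CPM at day 5, 369 to 479 CPM in day 6 libraries 1, 2 and 4, and 446 CPM in library 3.

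Most genes of dorsoventral neural tube domains rose, while anteroposterior, general neural and neuronal genes were mixed. Of 15 genes of dorsoventral neural tube domains 10 were higher and 0 lower, with a median of 2.41. Olig2, a motor neuron progenitor factor at chr16:91225457-91228677, was at 0.149, 0.0471, 0 and 0.105 CPM and then 6.26, 8, 1.91 and 7.62 CPM (6.27 ± 0.66, adjusted p = 3.57e-08). Pax6, a progenitor factor, was at 1.49, 0.847, 1.1 and 1.76 CPM and then 53.3, 18.8, 7.79 and 33.9 CPM (4.45 ± 0.57, adjusted p = 5.81e-07). Library 3 was the lowest of day 6 for Olig2 and Pax6. Nkx6-1, of ventral progenitors, went from 0.974 ± 0.0458 to 10.2 ± 3.29 CPM. Dbx1, of the intermediate tube, was at 20.9, 2.77, 0.937 and 5.69 CPM at day 6 and rose by 4.40, by 4.76 without library 3 and by 3.12 without day 6 library 1. Of 16 pan-neural progenitor genes 4 were higher and 1 lower, where 11.1% and 8.72% of all genes were. Without library 3 the counts were 6 and 1. Sox1 was 38.3 ± 19.8 and 26.7 ± 8.01 CPM (adjusted p = 0.463). Ncam1, a neural adhesion molecule, went from 34.2 ± 17.4 to 105 ± 36.8 CPM.

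Of 21 neuron genes 4 were higher and 5 lower, and 5 higher and 3 lower without library 3. Neurog2, a proneural factor, rose by 5.0 from 0.0535 ± 0.0213 CPM. Ina, an intermediate filament protein, was at 32.5, 40.9, 43.5 and 42.4 CPM and then 5.92, 17, 15.7 and 15.2 CPM (-1.57, adjusted p = 0.000894). Tubb3, neuronal tubulin, was 9.83 ± 1.78 and 12 ± 3.86 CPM (adjusted p = 0.732). Otx2, of epiblast and anterior neural tissue, was 52.3 ± 26.2 and 95.6 ± 35.3 CPM (0.87, adjusted p = 0.107), and passed without day 5 library 2 (1.26, adjusted p = 0.0296). Hesx1, an anterior homeobox factor, rose from 0.607 ± 0.302 to 12.9 ± 5.11 CPM. Of 15 forebrain and anterior neural genes 2 were higher and 1 lower, near the shares of all genes (11.1% higher and 8.72% lower). Midbrain and hindbrain genes were mixed, with 4 of 16 higher, 3 lower and a median of 0.07. Neural crest genes were mixed, with 4 of 15 higher and 3 lower, and 5 higher and 3 lower without library 3. Among those higher, Ednrb, a receptor of neural crest cells, went from 2.15 ± 0.614 to 22.9 ± 13.3 CPM, with 4.14 CPM in library 3 and 22.6 to 32.4 CPM in the other 3.

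**Figure D3:**
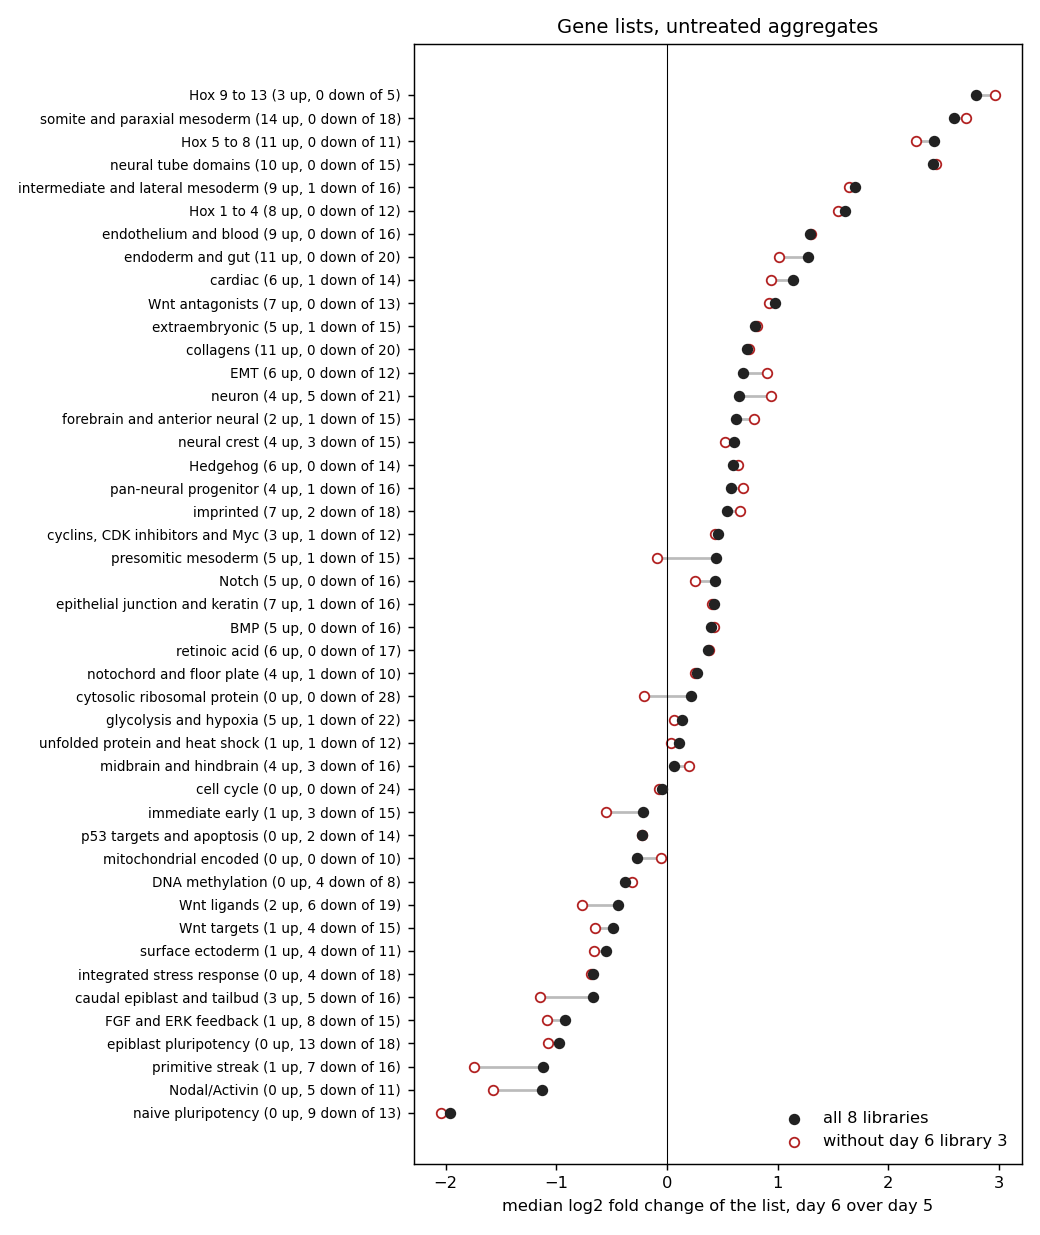
Median log2 fold change of day 6 over day 5 for each of the 45 gene lists, with all 8 libraries (filled points) and without day 6 library 3 (open points), and with the number of members higher and lower of those tested. The presomitic and ribosomal protein medians changed sign without the library, from 0.45 to -0.088 and from 0.22 to -0.21, and the somite median stayed near 2.6.

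Of 19 Wnt ligands 2 were higher and 6 lower: Wnt16 rose from 0.212 ± 0.0366 to 3.09 ± 0.729 CPM, and Wnt2b fell by 2.68, or by 2.01 without day 5 library 1. Of 15 Wnt targets 1 was higher and 4 lower. Axin2, a feedback target of Wnt signalling, was at 110, 73, 86.1 and 69.7 CPM and then 45.9, 43, 37.8 and 45.4 CPM (-0.98 ± 0.30, adjusted p = 0.0193, and 0.065 without day 5 library 1). Of 13 Wnt antagonists 7 were higher and 0 lower, among them Sfrp1 (104 ± 29.5 to 307 ± 57.1 CPM) and Shisa2 (10.2 ± 4.22 to 67.9 ± 17.9 CPM).

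Of 14 Hedgehog genes 6 were higher and 0 lower. Shh, the ligand, was at 1.67, 1.34, 0.905 and 0.368 CPM and then 4.85, 9.34, 11.9 and 7.03 CPM (2.95 ± 0.49, adjusted p = 4.41e-05). Gli1, a transcriptional target of the pathway, went from 10.2 ± 4.55 to 51 ± 14.9 CPM, and Ptch1, the receptor and a target, from 102 ± 37.7 to 328 ± 111 CPM. Of 17 retinoic acid genes 6 were higher and 0 lower. Rarb, a receptor and target, whose promoter window is printed above, was at 2.6, 0.965, 0.622 and 0.842 CPM and then 37.2, 22.6, 17.7 and 24.9 CPM (4.36 ± 0.40, adjusted p = 1.87e-09, and 4.97 without day 5 library 1). Crabp2, a retinoic acid carrier, went from 90.3 ± 31.2 to 392 ± 85.1 CPM. Cyp26a1, which degrades retinoic acid, was 36.2 ± 15.7 and 86.1 ± 43.7 CPM, a change of 1.25 whose adjusted p was 0.0436 with all libraries, 0.158 without day 6 library 3 and 0.0598 to 0.166 without day 5 library 3 or 4 or day 6 library 1 or 2. Aldh1a2, which makes retinoic acid, was at 216, 35, 20.7 and 4.82 CPM and then 112, 181, 319 and 175 CPM (1.51, adjusted p = 0.0689), and passed without day 5 library 1 (3.28, adjusted p = 2.94e-05). Of 16 Notch genes 5 were higher and 0 lower, with Hey2 up from 1.68 ± 0.635 to 9.09 ± 2.92 CPM and Heyl up from 0.321 ± 0.246 to 4.28 ± 0.85 CPM. Of 16 BMP genes 5 were higher and 0 lower.

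Of 20 collagens 11 were higher and 0 lower, and Col26a1 went from 5.08 ± 2.87 to 40.9 ± 17.5 CPM. Of 18 imprinted genes 7 were higher and 2 lower. H19, an imprinted noncoding RNA, was at 120, 33.8, 21.9 and 16.5 CPM and then 2448, 802, 1127 and 791 CPM (4.75 ± 0.45, adjusted p = 3.16e-09, and 5.75 without day 5 library 1). Igf2, its neighbour and a growth factor, went from 41.7 ± 15 to 161 ± 54.1 CPM. Of 22 glycolysis and hypoxia genes 5 were higher and 1 lower, where 11.1% and 8.72% of all genes were. Without library 3 the counts were 2 and 3. The glucose transporter Slc2a3 rose from 458 ± 122 to 991 ± 169 CPM and P4ha1, a collagen prolyl hydroxylase, from 20.5 ± 4.09 to 46.3 ± 8.05 CPM, while Ndrg1, a stress-induced gene, fell from 81 ± 38.8 to 11.8 ± 4.53 CPM. Among 14 p53 target and apoptosis genes 2 were lower, 0 higher and 12 without a call, with a median of -0.22, where 8.72% of all genes were lower. The 2 were Cdkn1a, a p53 target that halts the cell cycle (155 ± 32.1 to 72 ± 9.04 CPM), and Pmaip1, an apoptosis gene (86.4 ± 32.7 to 27.2 ± 7.85 CPM). Slc7a11, the cystine transporter of the integrated stress response, fell from 67.1 ± 34.4 to 12.9 ± 8.23 CPM. In that list 4 of the 18 genes were lower and 0 higher, where 8.72% of all genes were lower. Of 24 cell cycle genes 0 passed (edgeR), with 2 at an unadjusted p under 0.05 and 0 called by DESeq2, and 2 were lower without library 3. Mcm7, a replication helicase subunit, was 721 ± 26.2 and 678 ± 51.7 CPM (adjusted p = 0.454).

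The largest changes by fold among genes of at least 5 CPM included, beside those above, Corin, a serine protease, from 0.148 ± 0.129 to 7.04 ± 2.08 CPM. Foxd2os, a transcript opposite Foxd2 whose reads cannot be told apart from its partner's without the strand setting, went from 0.211 ± 0.0553 to 5.7 ± 4.57 CPM (4.72, and 3.99 without day 6 library 1). Among falls, Acta1, skeletal actin, read 6.21, 14.6, 8.62 and 11.2 CPM and then 0.213, 0.4, 0.937 and 0.469 CPM (-4.35 ± 0.42, adjusted p = 4.03e-09), and Tagln, a smooth muscle actin-binding protein, went from 20.5 ± 12.1 to 1.54 ± 0.892 CPM. Btla, a lymphocyte receptor, went from 11.9 ± 4.52 to 0.667 ± 0.43 CPM, Trim67 from 36.8 ± 16.7 to 2.41 ± 1.73 CPM and Grm6, a glutamate receptor, from 6.12 ± 3.61 to 0.56 ± 0.121 CPM. Zyg11a fell by 3.46. Day 6 was below day 5 in every library for these 6 genes, which the rule that named them required.

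Leaving out day 6 library 3 moved many genes across the threshold and moved changes by transcript length. Of the 3345 genes called, 2751 (82.2%) were also called without it, 0 of these in the opposite direction. The share was 72.5% without day 5 library 4, 74.7% without day 5 library 2, 76.3% without day 6 library 1, and 83% to 92.1% without any one of the other 4. The 594 called only with it were 321 higher and 273 lower, and the 825 called only without it were 421 higher and 404 lower, among the 16878 genes. Library 3 was above the mean of the other day 6 libraries by a median of 1.18 on the log2 scale for transcripts under 1 kb, by 0.74 at 1 to 2 kb and by 0.15 at 2 to 4 kb, and below it by 0.54 at 4 to 8 kb and 1.30 at 8 kb and over. The length is that of the longest annotated transcript (GENCODE M21). Genes higher only with library 3 had a median length of 2093 bases and those lower only with it 3901 bases, against 5582 bases for genes higher only without it and 1916 bases for genes lower only without it. Among the 10650 genes of at least 5 CPM with a length, 340 were below 1 kb, and of these 17 were higher and 15 lower with it, and 9 and 60 without it. Of 723 at 8 kb and over, 47 were higher and 54 lower with it, and 122 and 45 without it.

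**Figure D4:**
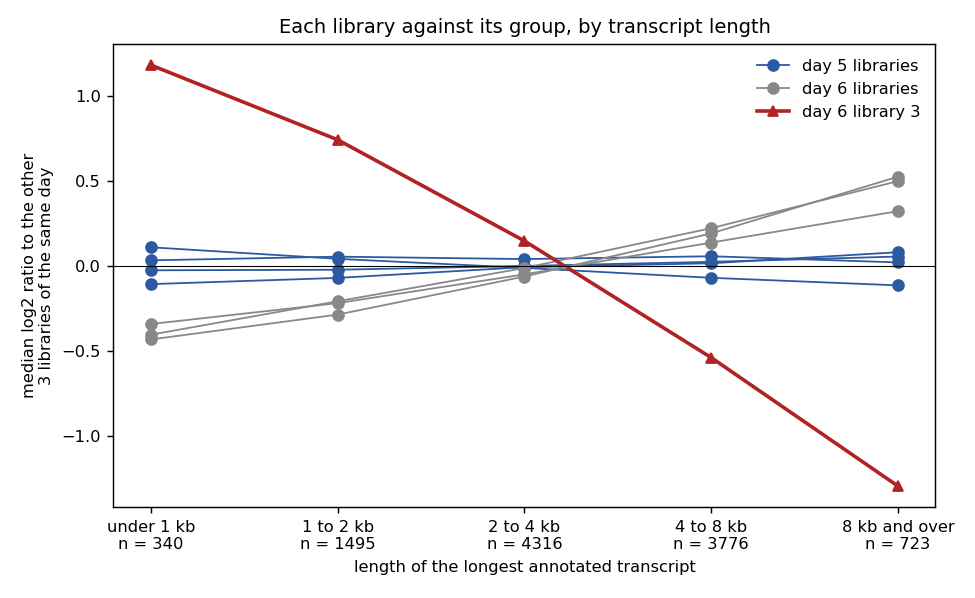
Median log2 ratio of each library to the other 3 libraries of its day, by length of the longest annotated transcript, for genes of at least 5 CPM, with the number of genes under each class. Day 6 library 3 runs from 1.18 under 1 kb to -1.30 at 8 kb and over, the other day 6 libraries run the opposite way because library 3 is among their 3 comparators, and the day 5 libraries stay near 0.

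Further genes whose change moved most on leaving it out stand beside Mixl1, Evx1, Wnt3a, Msgn1 and Dbx1 above. Rpl36, a ribosomal protein with near-identical pseudogenes, was at 64.9, 70.2, 404 and 93.3 CPM at day 6 against 57.6 to 131 CPM at day 5, so its change was 0.57 with library 3 and -0.48 without it, neither past the threshold. All 28 ribosomal protein genes of the list were above the other day 6 libraries in library 3, with a median of 1.25, and 0 of the 28 passed across the step (edgeR), with 0 at an unadjusted p under 0.05 and 0 called by DESeq2. Ptgds, prostaglandin D synthase, read 2.96, 4.94, 26.4 and 6.24 CPM at day 6 and changed by 1.45 with it and 0.34 without it, and by 2.49 (adjusted p = 0.0147) without day 5 library 1. Other genes lay low in it, with longest transcripts of 18760 bases for Fat3, 26901 for Zbtb20, 3571 for Scube2 and 2973 for Zfp758, the last 2 near the median of all genes. Fat3, a giant cadherin, read 91.9, 46.6, 5.98 and 77 CPM at day 6 and passed only without it (1.38, adjusted p = 8.53e-05, against 1.01 and 0.0526). Scube2, a Hedgehog release factor, also passed only without it (1.39, adjusted p = 0.0345). Zbtb20 read 11.1, 8.11, 0.808 and 9.06 CPM at day 6 and changed by -0.10 with it and 0.27 without it, and Zfp758 read 6.32, 5.14, 0.42 and 4.6 CPM (-0.71 and -0.34).

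Library 3 also held more RNA of streak and presomitic genes than its group, though not of these lists alone. All 16 primitive streak genes were above the mean of the other 3 libraries, with a median of 1.80, and all 15 presomitic genes were, with a median of 1.64. After smooth trends on transcript length and GC content were taken out of every library, a step chosen after seeing the data, 15 of 16 and 15 of 15 were above, with medians of 1.0 and 1.05. Of the 28 ribosomal protein genes 27 were above after it, with a median of 0.42 in place of 1.25, and all 11 surface ectoderm genes were above before and after (0.77 and 0.49). Before and after, 14 and 13 of 16 caudal epiblast and tailbud genes were above, 15 and 13 of 16 epithelial, and 20 and 18 of 22 glycolysis and hypoxia genes. Other lists lay mostly below: above were 4 and 2 of 15 neural tube domain, 5 and 3 of 16 pan-neural and 7 and 5 of 21 neuron genes. So did 4 and 3 of 16 endothelium and blood genes, and 0 of 10 mitochondrial genes were above in either. Of all genes 48.6% were above before and 46.2% after. Pou5f1 was 3.08 above before and 2.13 after, and Mixl1 3.02 and 2.73. Of all genes 24.0% lay beyond 1 log2 unit from the other 3 libraries before and 12.1% after.

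**Figure D5:**
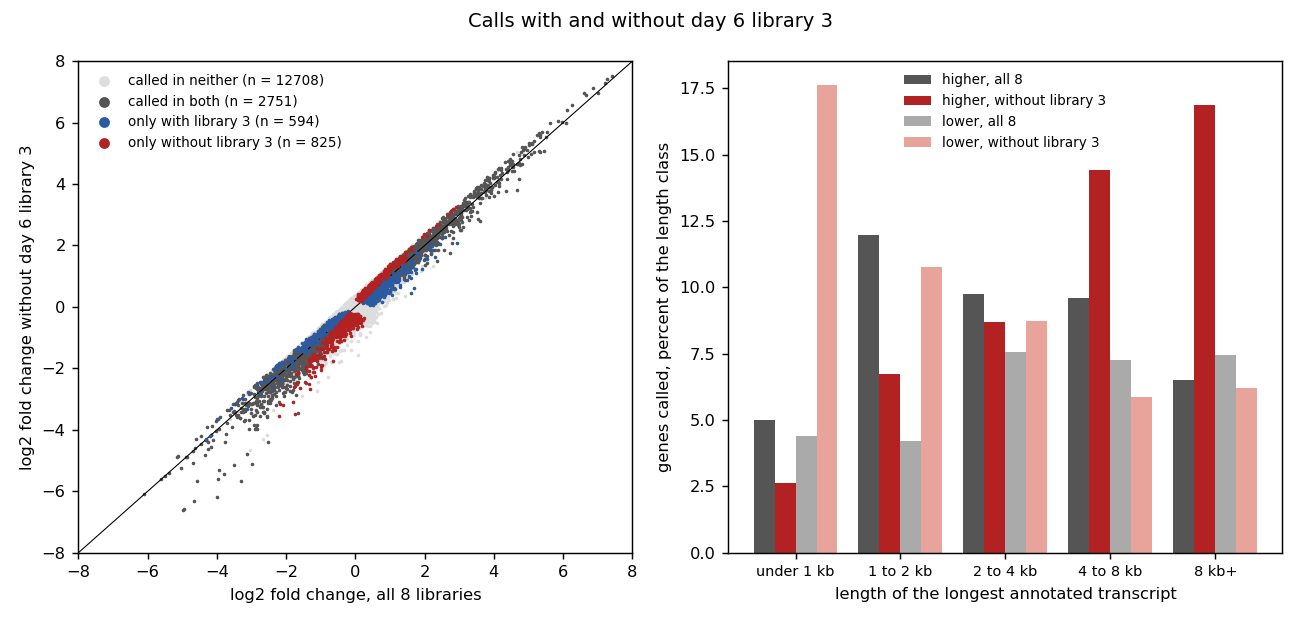
Left, log2 fold change of day 6 over day 5 of each gene with all 8 libraries and without day 6 library 3, coloured by the fit that called it (2751 in both, 594 only with, 825 only without). Right, genes called higher or lower as a percent of each length class, over genes of at least 5 CPM, with and without library 3: below 1 kb the lower calls go from 15 to 60 genes, and at 8 kb and over the higher calls go from 47 to 122.

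The same step was set against that of the XAV939 arm, in which 1565 genes were higher (9.27%) and 1297 lower (7.68%), 17% of genes in all. In the test of the difference between the steps 0 genes passed (edgeR, 0% of genes). Before adjustment 685 of the 16878 genes had a p under 0.05 (edgeR), a share that is itself below 0.05 and so no excess. By DESeq2 4 genes were higher and 4 lower. Without day 6 untreated library 3, 5 genes passed (0.0293% of 17040), 4 higher (0.0235%) and 1 lower (0.00587%), named here after their values were seen, and without day 6 untreated library 4, 4 passed, all higher. Tnc, a matrix glycoprotein, was at 28.7, 11.5, 4.78 and 2.08 CPM at day 6 untreated after 1.32 to 1.61 CPM at day 5, and was 1.22 ± 0.374 and 1.11 ± 0.28 CPM with XAV939. Its difference of steps was 3.35 (adjusted p = 0.0445), and 3.11 (0.133) with library 3. Tph1, tryptophan hydroxylase, Clic6 and Sv2c differed by 1.92, 1.91 and 1.73, and by 1.93, 1.78 and 1.46 with library 3. Aldh1a2 differed by -4.78, by -4.42 (adjusted p = 0.0978) with it, and by -2.65 (0.422) with library 3 but without day 5 untreated library 1. Without day 6 untreated library 1 the difference for Tnc was 2.17 (adjusted p = 0.773). With the length and GC offset 4 of these 5 passed with all libraries (Tnc did not, adjusted p = 0.0541), and none of the 5 did without library 3 (adjusted p = 0.0556 to 0.0589). Meox1 rose by 4.66 untreated and 7.04 with XAV939, and Hoxb9 by 2.80 and 4.95, differences that did not pass (adjusted p = 0.734 and 0.759).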

How the data were processed

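Per the labels' protocols, stranded TruSeq poly(A) libraries were made from 300 ng of Trizol RNA and read as 81 bp pairs on an Illumina HiSeq. The submitters' processing notes name bcl2fastq 2.20.0 and the build mm10. For aligner, counter, annotation and strand setting: not given in the sources used here. Raw counts for 26906 genes were deposited, not normalised by the authors.

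Genes were tested with edgeR 4.0.16 (limma 3.58.1, R 4.3.3): filterByExpr (minimum count 10, minimum total 15), TMM scaling, and 1 robust quasi-likelihood fit of 10 groups over 40 libraries, with the contrast of day 6 against day 5 untreated. Shares of counts were compared by exact permutation tests. DESeq2 1.42.0 was an alternative. Members, lists and the panel were chosen with earlier results of these data known. Named genes are the 10 largest rises and falls (called, at least 5 CPM in the higher group, groups apart, no unnamed or pseudogene models), a panel of 26, and the 6 genes each way that day 6 library 3 moved most, with list members of smallest adjusted p, of which 50 of 135 were printed, picked after their values were seen. A few genes that the rule names are not reported here. Lengths came from GENCODE M21. No pair of libraries was a copy (smallest chi-square per gene 22.6 over 12 pairs). On simulated counts of 16749 genes for this comparison (200 changed genes, at least 1 CPM), 75% of 2-fold and 98% of 4-fold changes were recovered and 6.49% of 185 calls were false. The simulated counts were drawn independently for each gene and library, with no length trend. These rates therefore do not cover the deviation of day 6 library 3.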

Additional observations from a re-analysis of the deposited data

Results flagged for a closer look

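In 21 of 200 gene groups of 4 libraries 1 library lay farther from the nearest other than Dixon's 95% critical value allows, where chance flags about 1 in 20. The genes include 11 chosen because day 6 library 3 moved their change most, which hold 4 of its 5 flags, so this count is no test against chance. Without them it was 16 of 178. In day 5 library 1 it was Meox1 at 18.8 CPM (others 0.947 to 2.19 CPM), Hoxb4 at 6.63 CPM (others 0.842 to 1.13 CPM), Hoxc6 at 2.72 CPM (others 0.079 to 0.282 CPM), Hoxb9 at 75 CPM (others 7.29 to 10.2 CPM), Aldh1a2 at 215.6 CPM (others 4.82 to 35 CPM), H19 at 120.1 CPM (others 16.5 to 33.8 CPM), Igf2 at 64 CPM (others 31.5 to 36.6 CPM) and Cdx2 at 118.6 CPM (others 37.7 to 47.3 CPM). In day 6 library 1 it was Tal1 at 8.21 CPM (others 0.679 to 1.5 CPM), Cdh5 at 6.29 CPM (others 0.162 to 0.762 CPM), Kdr at 55.6 CPM (others 5.16 to 7.37 CPM), Ina at 5.92 CPM (others 15.2 to 17 CPM) and Foxd2os at 12.5 CPM (others 2.71 to 4.06 CPM). In day 6 library 3 it was Evx1 at 10.3 CPM (others 1.57 to 2.31 CPM), Wnt3a at 14.6 CPM (others 1.36 to 3.31 CPM), Mesp2 at 13.3 CPM (others 2.96 to 4.51 CPM), Rpl36 at 404.4 CPM (others 64.9 to 93.3 CPM) and Ptgds at 26.4 CPM (others 2.96 to 6.24 CPM). Elsewhere it was Dnmt3b at 352 CPM in day 6 library 2 (others 194 to 218 CPM), Cdh1 at 419 CPM in day 5 library 2 (others 278 to 297 CPM) and Zbtb20 at 9.24 CPM in day 5 library 4 (others 7.2 to 7.41 CPM). In day 6 library 3 it was also the share of counts of ribosomal protein genes (11.84%, others 5.19% to 5.42%), of transcripts under 1 kb (7.33%, others 3.35% to 3.78%) and of transcripts of 8 kb and over (3.99%, others 9.17% to 9.96%). The day 5 to day 6 differences of these shares did not pass the exact permutation test (two-sided p = 1, 0.971 and 0.943, Benjamini-Hochberg adjusted p = 1 over 4 shares, smallest possible p 0.0286). Library 3 entered these tests, which were not run without it. The ribosomal mean was 5.99% at day 5 and 6.91% at day 6, or 5.27% without library 3. For transcripts under 1 kb it was 3.98%, 4.51% and 3.57%, and for those of 8 kb and over 9.10%, 8.19% and 9.59%. Without library 3 each day 6 mean thus lay on the other side of its day 5 mean.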

How the results depend on the processing

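The number of libraries limits these results, and depth limits genes near the count filter. Of 100 printed genes, 92 to 99 kept direction and side of the threshold under each setting, except under the 5 CPM filter, where 90 of 91 tested did. Many of these genes were named for a small adjusted p or a large change, so they do not stand for all calls. Of all 3345 calls, a fit of only the 8 libraries kept 43.1%, and 42.8% with the replicate block. The 5 CPM filter, which tests fewer genes, kept 65.2%, RLE scaling 98.8% and DESeq2 99%. The counts of 1874 higher and 1471 lower genes ran from 1345 to 1992 and from 1087 to 1616 with each library left out in turn. The 5 CPM filter gave 923 lower, a fit of only the 8 libraries 841 and 623, and a log2 fold change of at least 1 gave 1116 and 951. Replicate numbers showed no clear pairing of the days (own-number correlations 0.141, 0.264, -0.0566 and 0.186, with 1 of 4 libraries closest to its own number). Day 6 library 3 entered the group mean behind these values, which were not computed without it. With the replicate number as a block the counts were 2258 and 1874 over 40 libraries and 817 and 656 over the 8. Length and GC offsets, added after seeing the data and revised after their counts were seen from centring within a group to centring over all libraries, gave 2314 higher and 2324 lower. The difference of steps between arms gave 0 to 4 genes higher and 0 to 4 lower over the libraries left out, 5 and 3 with the offset, 0 and 0 with the offset and without day 6 untreated library 3, 4 and 4 with DESeq2, and 2 and 3 without both untreated libraries numbered 3.

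Signs that turned, over the libraries left out (singly, or both untreated libraries numbered 3): Kdr ran from -1.5 to 0.44, Rpl36 from -0.48 to 0.83, Zbtb20 from -0.38 to 0.27, Cdx2 from -0.96 to 0.30 and Foxa2 from -0.19 to 0.45. Kdr was -0.27 and -0.54 with the replicate block over 40 and over 8 libraries and -0.097 with the offset, where Zbtb20 was 0.0029. With the offset and without day 6 library 3, Rpl36, Zbtb20 and Foxa2 were -0.073, 0.20 and -0.054. Without that library the presomitic and ribosomal protein medians were -0.088 and -0.21. The cause was not tested.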
